A study of Mus musculus with 899 samples.

Results

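Circulating levels of mmu-miR-23a-3p, mmu-miR-27a-3p, mmu-miR-24-3p, mmu-miR-23b-3p and mmu-miR-27b-3p were followed in mouse plasma before and after whole thorax lung irradiation (WTLI). These are the major mature miRNA of a pair of related genomic clusters. The members were selected by name from the count table, with earlier results of these data known, and make up 5 of 1915 mature miRNA in the table and 5 of 483 that held enough reads to be tested. All 5 passed the filter on low counts. Which values guided the choice is not recorded, so the adjusted p values of the members describe these samples and are not independent evidence. In the main edgeR tests they were taken over all 483 miRNA. Alternatives that changed the samples, the filter or the rows were adjusted over the miRNA tested there. Plasma came from male and female mice of strain C3H (C3Hf/Sed/Kam) and strain C57Bl/6, with no engineered allele given in the labels. In each strain the mice received WTLI or were sham irradiated. Samples were taken before irradiation (PT), at day 2 (D2) or day 5 (D5), which are different mice, and at month 1 (M1) and each later month up to month 4 (M4) in C3H and month 6 (M6) in C57Bl/6. By the numbers in their titles, the samples came from 196 mice. Of the C3H samples, 258 came from 64 irradiated mice and 144 from 32 sham mice. Of the C57Bl/6 samples, 321 came from 68 irradiated mice and 176 from 32 sham mice. A mouse gave between 2 and 8 samples (median 3). The titles also place each strain in different sets (G2 and G4 in C3H, G1 and G3 in C57Bl/6), whose meaning the labels do not give, and the samples from month 2 onward came from sets G1 and G2 only. Later irradiated groups held fewer mice: 17 of C3H at M4 and 8 of C57Bl/6 at M6, against 16 sham mice each. The authors report that irradiated mice of both strains died of late radiation injury. The mice still sampled late may therefore differ from those that were not, which was not tested for the late differences.

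A mature miRNA guides an Argonaute protein to messenger RNAs, chiefly through pairing of its seed, the bases near its 5′ end, and lowers their translation and stability. The miR-23, miR-27 and miR-24 genes are transcribed together from each cluster as a single primary transcript, which is then cut into separate hairpins. The miR-23 and miR-27 families are known for roles in endothelial cells and vessel growth, miR-27 also for restraining fat cell formation, and miR-24 for control of cell proliferation and of blood cell differentiation. Plasma miRNA are carried in vesicles and protein complexes released by blood cells and by many tissues. In such a fluid, the number of cells that release a miRNA and the amount released per cell cannot be told apart.

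On build GRCm38, the hairpins of the a cluster (Mir23a, Mir27a and Mir24-2) spanned 404 bases of the plus strand at chr8:84208518-84208921. Mir23a and Mir27a were intergenic in the annotation, and Mir24-2 lay in an exon of the lincRNA Gm26532 on the same strand. The hairpins of the b cluster (Mir23b, Mir27b and Mir24-1) spanned 792 bases of the plus strand at chr13:63300484-63301275. Mir23b lay in an intron of the protein-coding gene 2010111I01Rik on the same strand, whereas Mir27b and Mir24-1 overlapped exons of its non-coding or nonsense-mediated-decay transcripts. All 3 b hairpins also lay in an intron of Fancc on the opposite strand. Each miR-24 hairpin has an antisense partner, Mir3074-2 or Mir3074-1.

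The mature sequences are shown because the members differ in how well reads can tell them apart. They were taken from RefSeq (GRCm38.p6), in which 4 of the 5 members were matched, and are written from the 5′ end with the seed, bases 2 to 8, in capitals. The mature miR-23b-3p belongs to Mir23b. The others were:
miR-23a-3p: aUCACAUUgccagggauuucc
miR-27a-3p: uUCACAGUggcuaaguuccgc
miR-27b-3p: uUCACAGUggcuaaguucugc
miR-24-3p: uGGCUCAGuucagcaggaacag

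The mature bases of miR-23a-3p lay at chr8:84208563-84208583, of miR-27a-3p at chr8:84208727-84208747 and of miR-27b-3p at chr13:63300760-63300780. The miR-27a-3p and miR-27b-3p sequences were 21 bases long, shared the seed UCACAGU with no other miRNA matched in the table, and differed only by C19U, counted from the 5′ end with the base of miR-27a-3p given before the position. The 22 bases of miR-24-3p were the same at chr8:84208875-84208896 and chr13:63301251-63301272, so its reads came from either cluster and could not be divided. Its seed GGCUCAG was shared with miR-6413, miR-6410, miR-6369 and miR-5124b, of which none passed the filter on low counts. The sources used here do not say how reads that match both an a and a b form were assigned, and the split between the miR-27 forms is uncertain to that extent. The same holds for the miR-23 forms, of which no sequence of miR-23b-3p was compared here, so that the levels and ratios of miR-23b-3p, the scarcer form, depend on that assignment.

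A sample held between 206490 and 11814515 counts (median 1475030). All 5 members were counted in every sample, and the lowest count of any member was 22 reads, for miR-23b-3p. Levels are given as CPM, edgeR's counts scaled to a common library total after TMM normalization (a factor that corrects each total for the composition of the sample), and differences as log2 values with their standard errors (SE). Among marker miRNA of other sources, leukocyte markers were lower early after WTLI: the summed level of the 7 had a median of 12359 CPM in irradiated (range 8776 to 18715.6) against 24125 in sham C3H mice (range 9816 to 42376) at D2, and of 17348 (range 12362 to 35782) against 26709.9 (range 20665 to 37049.6) in C57Bl/6 at D5, with 5 and 4 of the 7 called lower. The other early time points were weaker: 3 of the 7 leukocyte markers were called lower at D5 in C3H and 2 at D2 in C57Bl/6. The median log2 differences of the 7 there were -0.75 and -0.19. Later, 1 of them was called lower at M1 in C3H and 1 higher at M2 in C57Bl/6. From M2 to M5 in C57Bl/6, 2, 1, 2 and 3 of the 3 liver markers were called higher. At M4 their sum had a median of 20299.6 CPM in irradiated (range 4015 to 132198) against 7540.2 in sham mice (range 3053 to 10387). At D5, 2 of the 7 red cell markers were called higher in C3H and 1 in C57Bl/6, where the medians of their sum were 595224 and 545088 CPM. At D2 in both strains and at D5 in C57Bl/6, 1 liver marker was called higher and 1 lower, and at M1 in C3H 1 was called higher. No more than 1 platelet marker and 1 marker of endothelium and stroma were called in either direction at a time point. Of all miRNA, 4.97%, 3.11% and 3.31% were called at D2, D5 and M1 in C3H. In C57Bl/6, 6.63% and 14.1% were called at D2 and D5, and 3.31%, 1.66%, 4.76% and 3.52% from M2 to M5. The part of these cell sources in the results below was not tested. At D5 in C57Bl/6, the 4 sham females of set G3 stood apart in miR-24-3p, and values without the females of that set at D5 are given for the results of miR-24-3p and miR-27b-3p that include them and for the tests between sexes. The TMM factors were computed anew there, so that values at other time points moved as well.

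All 5 members were among the more abundant miRNA in plasma. MiR-27b-3p had the highest level, with a mean of 13.19 log2 CPM, rank 15 of the 483 tested miRNA and 0.969% of all reads. MiR-23a-3p followed at 12.79 (rank 20, 0.745% of reads) and miR-24-3p at 12.37 (rank 26, 0.535%). MiR-27a-3p was at 10.82 (rank 49, 0.188%) and miR-23b-3p at 8.50 (rank 87, 0.0417%). The upper neighbours overlapped: miR-27b-3p exceeded miR-23a-3p in 676 of all samples by a mean of 0.39 (SD 0.56), and miR-23a-3p exceeded miR-24-3p in 726 by 0.42 (SD 0.53). The lower steps were clear of the spread. MiR-24-3p exceeded miR-27a-3p in every sample by 1.55, and miR-27a-3p exceeded miR-23b-3p in all but 1 sample by 2.32.

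**Figure D1:**
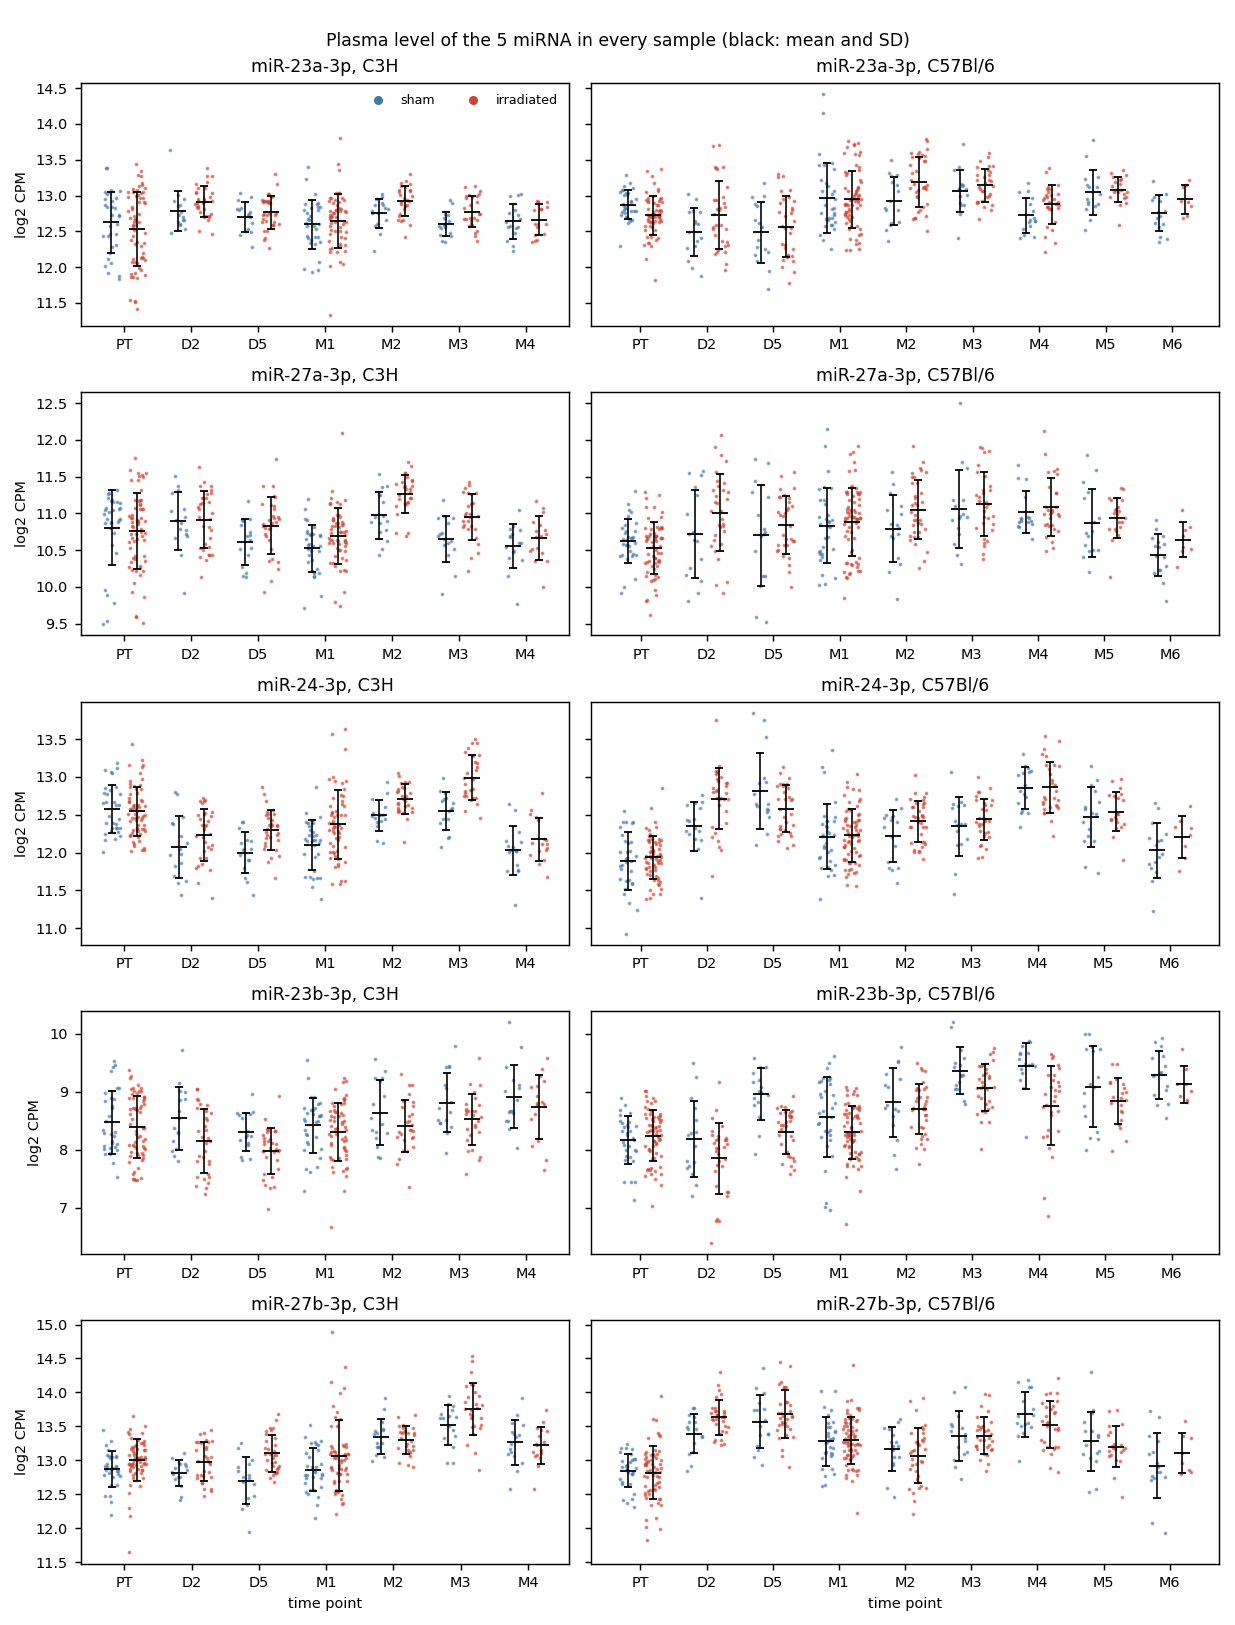
Level in log2 CPM (vertical axis) of the 5 members in each plasma sample, by time point (horizontal axis) in C3H (left) and C57Bl/6 (right), with sham samples in blue, irradiated samples in red and black bars for the mean and SD of a group. The sham and irradiated points overlap at every time point, and miR-23b-3p shows the widest spread of the 5.

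The spread within groups was small for 4 of the 5. Pooled within groups, the SD was 0.34 log2 units for miR-24-3p, miR-23a-3p and miR-27b-3p, ranks 6, 8 and 10 from the lowest among 164 abundant miRNA, whose median was 0.60. It was 0.41 for miR-27a-3p (rank 20) and 0.50 for miR-23b-3p (rank 46). Across the 32 groups, the mean of miR-23a-3p covered a range of 0.71, the second smallest of the 164, and that of miR-23b-3p a range of 1.59 against a median range of 1.51. MiR-23b-3p was lowest in irradiated C57Bl/6 mice at D2 (mean 7.85 log2 CPM) and highest in sham C57Bl/6 mice at M4 (9.44).

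The a and b forms stood in opposite order in the miR-23 and miR-27 families. MiR-23a-3p was above miR-23b-3p in every sample, and the b form made up a median of 4.89% of the sum of both forms (range 0.606% to 19.6%). MiR-27a-3p was below miR-27b-3p in every sample, where the b form made up a median of 83.4% (range 65.5% to 95.7%). As far as reads were assigned correctly, the more abundant form was that of the chromosome 8 cluster for miR-23 and that of the chromosome 13 cluster for miR-27.

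The members did not move as a block. Across all samples of both strains with group means removed, the correlation was highest between miR-23a-3p and miR-27a-3p (Pearson r = 0.74), neighbours in the a cluster. Each was the miRNA most like the other among the other 163 abundant miRNA. MiR-24-3p correlated with miR-27b-3p at 0.51, with miR-27a-3p at 0.49 and with miR-23a-3p at 0.29. MiR-23b-3p was apart from the rest, at 0.23 with miR-27b-3p, its neighbour in the b cluster, -0.06 with miR-24-3p, -0.11 with miR-27a-3p and -0.17 with miR-23a-3p. Over the 32 group means, miR-24-3p and miR-27b-3p were closest (0.77), and the pair miR-23a-3p and miR-27a-3p was at 0.54. These values are descriptions: the points share mice, library totals and scaling.

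**Figure D2:**
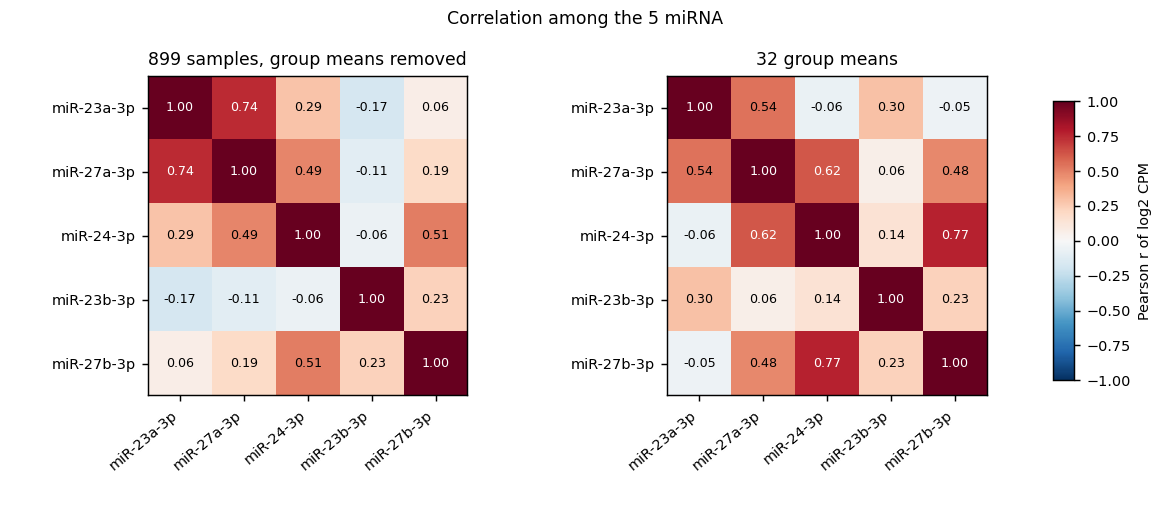
Pearson correlation of log2 CPM between each pair of the 5 members, over all samples with group means removed (left) and over 32 group means (right), on a colour scale from -1 (blue) to 1 (red). MiR-23a-3p and miR-27a-3p are closest on the left (0.74), miR-24-3p and miR-27b-3p on the right (0.77), and miR-23b-3p is near 0 or below with most members on the left.

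Outside the clusters, the miRNA most like each member by the same correlation were different. For miR-23a-3p they were miR-126a-5p (0.60), an endothelial miRNA, miR-218-5p (0.56) and miR-130a-3p (0.50), and for miR-27a-3p the same 3, at 0.45, 0.43 and 0.47. For miR-24-3p they were miR-223-3p (0.72), a miRNA of myeloid cells and platelets, miR-423-5p (0.55) and miR-139-5p (0.51). For miR-23b-3p they were miR-195a-5p (0.65), let-7c-5p (0.65) and miR-30c-5p (0.64). For miR-27b-3p they were miR-382-5p (0.61), miR-676-3p (0.54) and miR-30a-3p (0.48). The correlation with the total count of a sample lay between -0.23 (miR-24-3p) and 0.06 (miR-23b-3p), and that with miR-451a, the predominant red cell miRNA, between -0.42 (miR-27b-3p) and 0.14 (miR-23b-3p).

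MiR-23b-3p was lower in irradiated than in sham mice at all 14 time points after WTLI in both strains. The log2 differences were from -0.67 to -0.11 (median -0.31), and those at 3 time points passed the threshold, all in C57Bl/6. The sign was negative at each time point under all 3 scalings of the libraries that were tried, and 9 of the 14 had an unadjusted p under 0.05 in edgeR's quasi-likelihood test. Of the 483 miRNA tested, between 41 and 135 had such a p at a single time point after WTLI. Time points of a strain share mice, so the 14 values are not independent. In sham C57Bl/6 mice at D5, miR-23b-3p ranged from 242 to 766 CPM with a median of 509.6, and in irradiated mice from 191 to 485 with a median of 341. Every irradiated sample thus lay under the sham median, but the groups overlapped, as did the groups of every member at every time point. The difference was -0.67 (SE 0.15, edgeR adjusted p = 0.000201), or 0.63 of the sham level. At M4 the sham samples ranged from 298 to 935 CPM (median 711) and the irradiated samples from 114 to 799 (median 484), a difference of -0.60 (SE 0.15, edgeR adjusted p = 0.00392). At M1 the sham samples ranged from 123 to 785 CPM (median 399) and the irradiated samples from 104 to 537 (median 311), a difference of -0.34 (SE 0.10, edgeR adjusted p = 0.0377). In sham C57Bl/6 mice the level itself had risen from before irradiation, by 0.80 at D5, 0.49 at M1 and 1.27 at M4. The called differences are from that changed sham level and do not show a fall from the level before irradiation.

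The calls of miR-23b-3p at D5 and M4 remained in 16 of 17 and 14 of 16 alternative analyses, that at M1 in 1 of 17. With each mouse as a fixed replicate block in limma-voom, the D5 difference was -0.65 (adjusted p = 0.0182) and the M4 difference -0.64 (adjusted p = 0.029), and the call at M1 was lost (adjusted p = 0.434). The lower D5 level was found in each division of the mice. In set G1 the mean was 8.50 log2 CPM in irradiated against 9.22 in sham females and 8.15 against 9.11 in males. In set G3 it was 8.08 against 8.45 in females and 8.52 against 9.05 in males. In C3H mice the largest difference was at D2, where sham samples ranged from 221 to 841 CPM (median 351) and irradiated samples from 149.9 to 525 (median 288), and it did not pass the threshold (-0.39, SE 0.15, edgeR adjusted p = 0.12). Before irradiation the future irradiated and sham mice differed by -0.09 in C3H and 0.08 in C57Bl/6, with SE 0.11 in each.

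**Figure D3:**
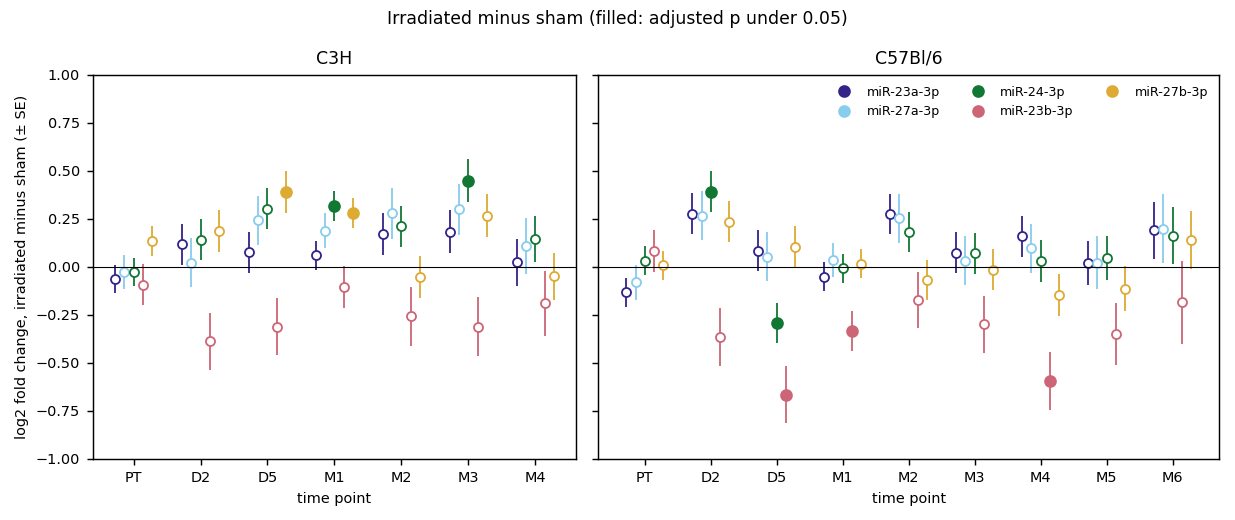
Log2 difference between irradiated and sham mice (vertical axis, with SE) of the 5 members at each time point (horizontal axis) in C3H (left) and C57Bl/6 (right), with filled points where the edgeR adjusted p was under 0.05. MiR-23b-3p (pink) lies below 0 at each of the 14 time points after WTLI, and 9 points are filled, of which 3 are miR-23b-3p in C57Bl/6.

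Since miR-23a-3p was not called at any time point, the forms were also compared within each sample, where scaling has no effect. The log2 ratio of miR-23a-3p to miR-23b-3p counts was higher in irradiated mice at all 14 time points, and 6 of the 14 passed a two-sided permutation test of the group means adjusted over the 28 miR-23 and miR-27 ratio comparisons. In C57Bl/6 mice at D5 the ratio ranged from 2.62 to 4.29 in sham (median 3.52) and from 3.08 to 5.69 in irradiated samples (median 4.37). The difference of the means was 0.73 (SE 0.16, permutation adjusted p = 0.00196). At M4 it ranged from 2.77 to 4.96 in sham (median 3.14) and from 2.81 to 6.05 in irradiated samples (median 4.04), a difference of 0.84 (SE 0.19, permutation adjusted p = 0.00196). In C3H mice at D5 it ranged from 3.82 to 4.97 in sham (median 4.33) and from 3.97 to 5.54 in irradiated samples (median 4.79), a difference of 0.40 (SE 0.10, permutation adjusted p = 0.00541). In C57Bl/6 the mean ratio before irradiation was 4.71 in sham and 4.49 in irradiated mice. It was then lower in both, at 3.52 and 4.26 at D5 and 3.28 and 4.12 at M4. In C3H it was 4.16 and 4.15 before irradiation and higher in both at D5, at 4.40 and 4.80.

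The remaining called differences of the miR-23 ratio were 0.52 at D2 in C3H (permutation adjusted p = 0.0368), 0.47 at M3 in C3H (permutation adjusted p = 0.0377) and 0.38 at M3 in C57Bl/6 (permutation adjusted p = 0.0368). Those that were not called lay between 0.16, at M1 in C3H, and 0.56, at D2 in C57Bl/6. Before irradiation the difference was -0.01 in C3H and -0.22 in C57Bl/6 (permutation p = 0.0508), opposite in sign to the later C57Bl/6 values. With labels permuted only within title set and sex, 11 of the 28 ratio comparisons passed instead of 7.

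**Figure D4:**
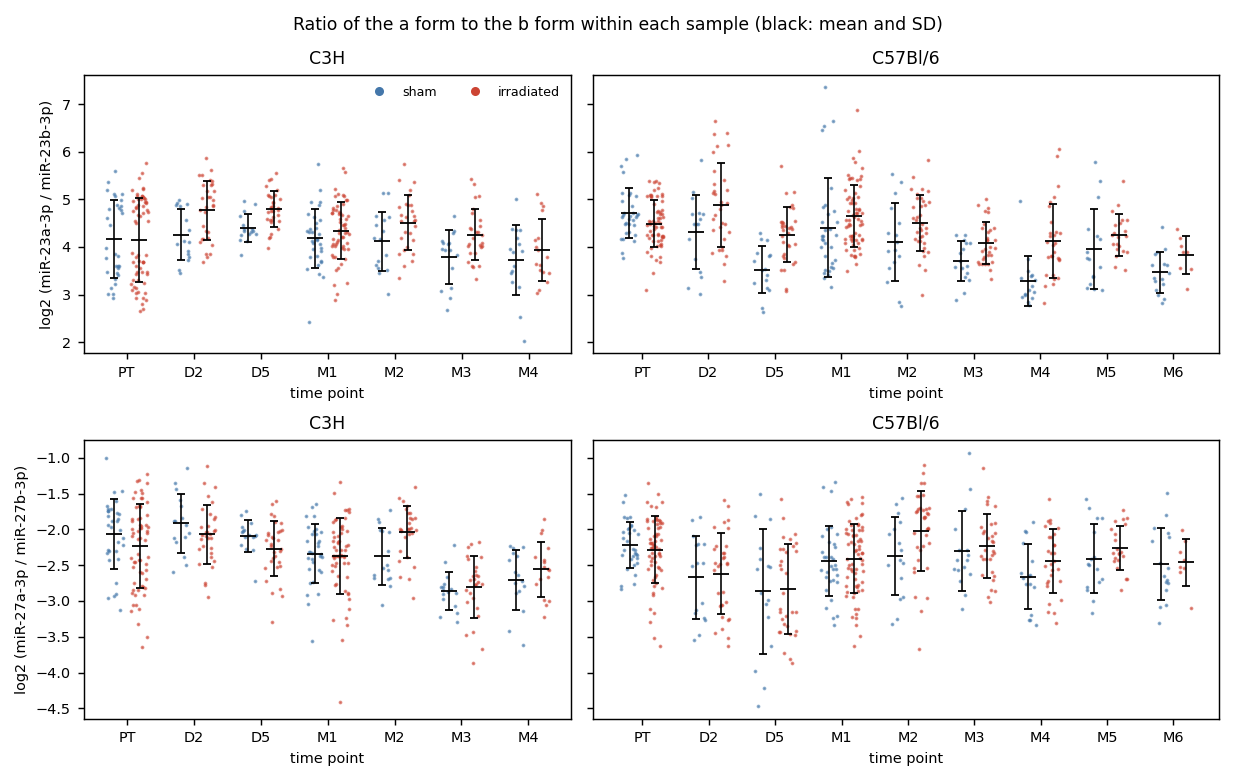
Log2 ratio of the a form to the b form (vertical axes) of miR-23 (top) and miR-27 (bottom) in each sample by time point in C3H (left) and C57Bl/6 (right), with sham samples in blue, irradiated samples in red and black bars for the mean and SD of a group. At D5 in C57Bl/6 the miR-23 ratio has a median of 4.37 in irradiated against 3.52 in sham samples, while the miR-27 ratios of the groups lie closer together.

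The ratio of miR-27a-3p to miR-27b-3p passed at 1 of the 14 time points. At M2 in C3H it ranged from -3.06 to -1.74 in sham (median -2.52) and from -2.96 to -1.41 in irradiated samples (median -2.0), a difference of 0.33 (SE 0.12, permutation adjusted p = 0.0368). The other 13 differences lay between -0.18 and 0.35. As a measure of red cell RNA, the ratio of miR-451a to miR-23a-3p was taken in the same way. Its denominator is itself a member, so this ratio also moves with the level of miR-23a-3p and does not measure red cell RNA alone. None of the 14 differences of this ratio passed the permutation test adjusted over the 14, and 1 had an unadjusted p under 0.05 (-0.61 at D2 in C57Bl/6, permutation p = 0.043).

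MiR-24-3p was higher in irradiated mice at 12 of 14 time points, and passed the threshold at 4, of which 3 were higher and 1 lower. In C3H mice at M1 it ranged from 2682 to 7453 CPM in sham (median 4585) and from 3055 to 12767 in irradiated samples (median 5194). The level was higher in irradiated than in sham mice by 0.31 (SE 0.08, edgeR adjusted p = 0.00373), or 1.24-fold. This is not a rise over time: in sham C3H mice the change from before irradiation to M1 was -0.48. At M3 it ranged from 4322 to 8148 CPM in sham (median 6114) and from 5601 to 11643 in irradiated samples (median 8020.0). The difference was 0.45 (SE 0.11, edgeR adjusted p = 0.00535), or 1.36-fold. This was the larger of the called C3H differences. It was kept with the mouse as a fixed replicate block (0.50, limma-voom adjusted p = 0.0246), whereas that at M1 was not (0.31, adjusted p = 0.0915). The M3 call remained in 12 of 16 alternative analyses. It was lost with scaling by total reads, with the a and b forms summed and in either sex alone. The M1 call remained in 11 of 17.

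In C57Bl/6 mice at D2, miR-24-3p ranged from 2708 to 6914 CPM in sham (median 5279.9) and from 3302 to 13828 in irradiated samples (median 7106). The difference was 0.39 (SE 0.11, edgeR adjusted p = 0.00968). With the mouse as a fixed block the D2 difference was 0.38 (limma-voom adjusted p = 0.0618). In a fit of females alone it was 0.69 (edgeR adjusted p = 0.00018) and in males alone 0.12 (edgeR adjusted p = 0.804). At D5 the direction was the opposite, and it rested on set G3. Sham samples ranged from 4387 to 14775 CPM (median 6374) and irradiated samples from 4278 to 8993 (median 6363), with a difference of -0.29 (SE 0.10, edgeR adjusted p = 0.0365). In set G3 alone it was -1.02 (edgeR adjusted p = 1.48e-11), and in set G1 alone 0.34 (edgeR adjusted p = 0.116). The 4 sham females of set G3 lay between 12.57 and 13.85 log2 CPM, with a mean of 13.43 against 12.25 in the irradiated females of that set. Without the females of that set at D5, the difference was 0.11 (edgeR adjusted p = 0.746), and the call was also lost with the mouse as a fixed block (limma-voom adjusted p = 0.0705). The D2 call remained in 14 of 17 alternative analyses and the D5 call in 4 of 17. MiR-223-3p, the miRNA most like miR-24-3p in these samples, is in both the leukocyte and the platelet marker list, and the part of those cells in miR-24-3p was not tested.

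The irradiation effect on miR-24-3p differed between the strains over the 6 shared time points (F test in edgeR, adjusted p = 0.000339). At D5 the effect in C57Bl/6 minus that in C3H was -0.59 (edgeR adjusted p = 0.00609). The F test no longer passed without the G3 females at D5, with scaling by total reads alone or with quantile normalization, and its adjusted p ranged from 1.41e-05 to 0.0838 over 11 alternatives. It was the only member of the 5 called, against 4.35% of all miRNA. The adjusted p was 0.96 for miR-23a-3p, 0.828 for miR-27a-3p, 0.692 for miR-23b-3p and 0.373 for miR-27b-3p, so no strain difference in the response of miR-23b-3p was found, although its calls were in C57Bl/6 alone.

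Between the sexes, the effect over D2, D5 and M1 differed in C57Bl/6 for miR-24-3p (F test in edgeR, adjusted p = 0.00158, past the threshold in 9 of 9 alternatives) and for miR-27a-3p (adjusted p = 0.0156, 3 of 9 alternatives, and 0.0735 in limma-voom with the mouse as a random replicate block). These were 2 of the 5 members, against 5.18% of all miRNA. In C3H it was 0 of the 5, against 0.414%. No time point passed on its own. The effect on miR-24-3p in males minus that in females was -0.62 at D2 (edgeR adjusted p = 0.103), 0.52 at D5 (edgeR adjusted p = 0.14) and -0.40 at M1 (edgeR adjusted p = 0.357), and for miR-27a-3p it was -0.75, -0.34 and -0.43. Without the G3 females at D5, an alternative chosen after seeing the data, the F test passed for miR-24-3p (edgeR adjusted p = 0.0138) and not for miR-27a-3p (edgeR adjusted p = 0.0674). The D5 difference between the sexes then had the opposite sign for both, at -0.18 for miR-24-3p and 0.13 for miR-27a-3p.

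MiR-27b-3p was higher in irradiated than in sham C3H mice at D5 and M1. At D5 it ranged from 3916 to 9728 CPM in sham (median 6868) and from 6544 to 13087 in irradiated samples (median 8657). The difference was 0.39 (SE 0.11, edgeR adjusted p = 0.0197), or 1.31-fold. At M1 it ranged from 4548 to 11769.7 CPM in sham (median 7177) and from 4746 to 30519.9 in irradiated samples (median 8280.4). The difference was 0.28 (SE 0.08, edgeR adjusted p = 0.018). A few irradiated samples at M1 lay far above the rest. The D5 call remained in 10 of 17 alternative analyses and the M1 call in 7 of 17. With the mouse as a fixed replicate block, which takes account of the level before irradiation, neither call was kept. The D5 difference was 0.24 (limma-voom adjusted p = 0.681) and the M1 difference 0.07 (limma-voom adjusted p = 0.93). In C57Bl/6 mice miR-27b-3p was not called at any time point, with differences between -0.15 and 0.23. At D5 its sets were opposed, as those of miR-24-3p were: 0.52 in G1 (edgeR adjusted p = 0.0135) and -0.44 in G3 (edgeR adjusted p = 0.0213). With both sets it was 0.10, and without the G3 females at D5 it was 0.35 (edgeR adjusted p = 0.11).

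MiR-27a-3p and miR-23a-3p, the pair closest in these plasma samples, were not called at any time point after WTLI. For miR-27a-3p the difference was positive at 14 of 14 time points, between 0.02 and 0.30, and 5 had an unadjusted p under 0.05 in edgeR. Its largest difference was at M3 in C3H, where sham samples ranged from 959 to 2324 CPM (median 1631) and irradiated samples from 1186 to 2759 (median 1999.7), with an edgeR adjusted p of 0.237. For miR-23a-3p it was positive at 13 of 14 time points, between -0.05 and 0.28, and 2 had an unadjusted p under 0.05. At D2 in C57Bl/6, the largest, sham samples ranged from 3747 to 8326 CPM (median 5976) and irradiated samples from 3983 to 13380.4 (median 6487), with an edgeR adjusted p of 0.0958. With the mouse as a fixed replicate block this difference was 0.44 and passed (limma-voom adjusted p = 0.0147), as did that of miR-27a-3p at D2 (0.50, adjusted p = 0.0272). Of all 483 miRNA, between 41 and 135 had an unadjusted p under 0.05 in edgeR at a single time point after WTLI.

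Against all miRNA tested, the counts of called members were as follows. In C3H, 0 of the 5 were called at D2, 1 at D5, 2 at M1, 0 at M2, 1 at M3 and 0 at M4, where 4.97%, 3.11%, 3.31%, 0.621%, 2.07% and 0.414% of the 483 miRNA were called. In C57Bl/6, 1 was called at D2, 2 at D5, 1 at M1 and 1 at M4, where 6.63%, 14.1%, 3.73% and 4.76% were called, and 0 at M2, M3, M5 and M6, where 3.31%, 1.66%, 3.52% and 0.414% were called. Before irradiation 0 members and 0.0% of all miRNA were called in either strain by edgeR, with 32 miRNA in C3H and 25 in C57Bl/6 at an unadjusted p under 0.05. In all, 4 of 30 member values after WTLI were called in C3H and 5 of 40 in C57Bl/6, and with the mouse as a fixed replicate block 1 of 30 and 4 of 40. These 4 were only in part the same calls. MiR-23b-3p at D5 and M4 was kept, and miR-23a-3p and miR-27a-3p at D2 were added. MiR-24-3p at D2 and D5 and miR-23b-3p at M1 were lost. Under another scaling 14 of the 70 values changed sign, none of them a called value and none of miR-23b-3p. Scaling by total reads moved the median difference of all miRNA by over 0.1 at 5 time points. In C3H it was -0.16 instead of -0.03 at D2, -0.12 instead of 0.00 at D5 and 0.04 instead of -0.07 at M2, and in C57Bl/6 it was 0.09 instead of -0.06 at D2 and -0.18 instead of -0.07 at M5. The values here are on the TMM scale.

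Before irradiation the strains differed in 4 of the 5 members, and 50.7% of all miRNA were called in this comparison. MiR-24-3p was lower in C57Bl/6, with a mean of 11.92 log2 CPM (SD 0.32, range 10.93 to 12.85, n = 96) against 12.56 in C3H (SD 0.32, range 12.01 to 13.43, n = 96), a difference of -0.65 (SE 0.05, edgeR adjusted p = 4.3e-30). MiR-23a-3p was higher in C57Bl/6 by 0.16 (edgeR adjusted p = 0.0058). MiR-27a-3p was lower (-0.24, edgeR adjusted p = 0.000427), as was miR-23b-3p (-0.27, edgeR adjusted p = 0.00137), and both calls were lost with scaling by total reads. MiR-27b-3p was at -0.09 (SE 0.05, edgeR adjusted p = 0.137). Within samples, the log2 ratio of miR-23a-3p to miR-23b-3p was 0.41 higher in C57Bl/6 (permutation p = 0.00016), the miR-27 ratio differed by -0.08 (permutation p = 0.269), and the ratio of miR-451a to miR-23a-3p was lower, at -0.67 (permutation p = 2.0e-05, the smallest that 100000 resamples give). The strains fell in different title sets, so set and strain cannot be told apart. Males and females differed in 0 of the 5 members in both strains, against 14.5% of all miRNA in C3H and 14.7% in C57Bl/6. The smallest edgeR adjusted p was 0.0726, for miR-27a-3p in C3H (-0.21 in males minus females), and with the mouse as a random replicate block it passed (limma-voom adjusted p = 0.0345).

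The sham mice changed over time as well. In C57Bl/6, the largest change of each member in sham mice was larger than its largest difference between irradiated and sham mice. Over all time points, 5 of the 5 members differed from the level before irradiation in sham C57Bl/6 mice and 4 of the 5 in sham C3H mice (F test in edgeR), where 62.9% and 46.0% of all miRNA were called. In C57Bl/6, miR-23b-3p had a median of 298 CPM before irradiation (range 139 to 472) and of 711 at M4 (range 298 to 935), and most samples at M4 lay above the earlier range. The rise was 0.80 at D5, 0.49 at M1, 0.71 at M2, 1.20 at M3, 1.27 at M4, 1.02 at M5 and 1.12 at M6, all called by edgeR (F test adjusted p = 1.02e-23). At D2 its change was 0.11 and was not called.

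MiR-24-3p moved in opposite directions in sham mice of the 2 strains. In C57Bl/6 it rose from a median of 3812 CPM before irradiation to 7414 at M4 (range 5192 to 10117), with called rises between 0.32 and 0.97 from D2 to M5, and was at 0.14 at M6. The rise of 0.97 was at D5, and it was 0.63 without the G3 females, a setting added after seeing the data (edgeR adjusted p = 8.7e-07). In C3H it fell, with changes of -0.48 at D2, -0.59 at D5, -0.48 at M1 and -0.55 at M4, and was at -0.11 at M2 and -0.04 at M3. MiR-27b-3p rose in C57Bl/6 at each time point up to M5, by 0.33 to 0.85 (at D5 0.75, and 0.51 without the G3 females, where the M2 rise was no longer called, at 0.28 with an edgeR adjusted p of 0.0626), and in C3H at M2, M3 and M4, by 0.48, 0.65 and 0.40. MiR-23a-3p fell in C57Bl/6, with changes of -0.35 at D2 and -0.34 at D5, and was not called in C3H (F test in edgeR, adjusted p = 0.723). MiR-27a-3p rose in C57Bl/6 at M1, M3 and M4, by 0.27, 0.50 and 0.39, and fell in C3H at M1, with a change of -0.32. MiR-23b-3p rose in C3H at M4 by 0.45. With the mouse as a fixed replicate block in C3H, miR-23a-3p was called (F test in limma-voom, adjusted p = 0.0253) and miR-23b-3p was not (adjusted p = 0.502). At single time points, the same block ended the calls of miR-23b-3p at M4 in C3H (limma-voom adjusted p = 0.167) and of miR-27a-3p at M1 in C57Bl/6 (limma-voom adjusted p = 0.111). It added calls of miR-23a-3p and miR-27a-3p at M2 in C3H (0.31 and 0.32), of miR-23a-3p at M3 and M5 (0.35 and 0.33), of miR-27a-3p at M2 and M5 (0.36 and 0.44) and of miR-24-3p at M6 (0.33) in C57Bl/6. The age of the mice and the handling of the samples at each time point cannot be told apart. From M2 onward the sets differed as well, since only G1 and G2 were sampled, whereas every set was sampled before irradiation. The mouse as a fixed block compares each mouse with itself.

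**Figure D5:**
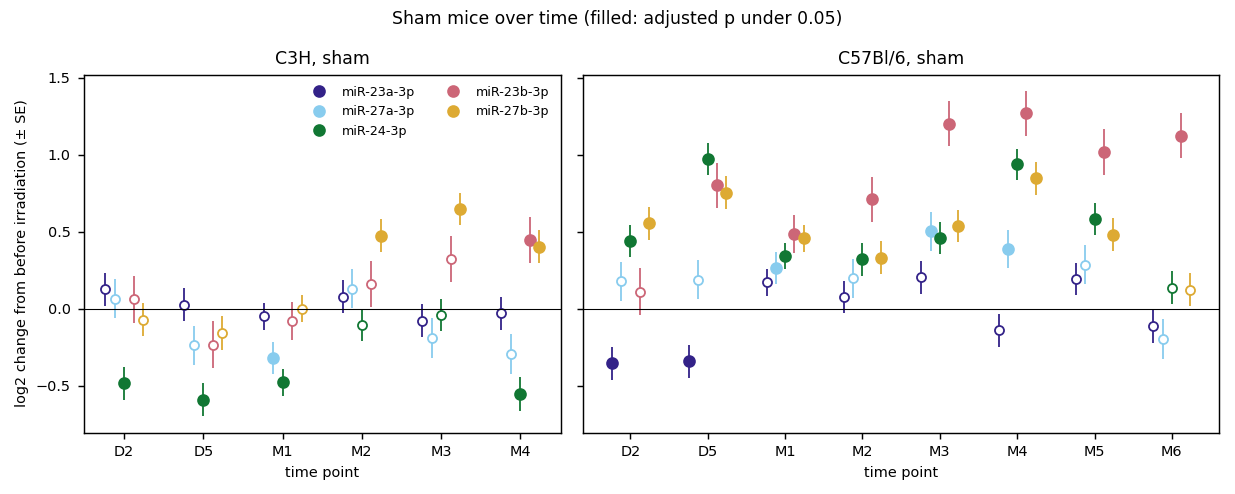
Log2 change of the 5 members in sham mice from before irradiation (vertical axis, with SE) at each later time point (horizontal axis) in C3H (left) and C57Bl/6 (right), with filled points where the edgeR adjusted p was under 0.05. In C57Bl/6 miR-23b-3p (pink) rises to 1.27 at M4, and miR-24-3p (green) lies below 0 in C3H and above 0 in C57Bl/6.

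The other strands of the same hairpins were scarce. Against 11355963 reads of miR-23a-3p in all samples there were 1038 of miR-23a-5p, and against 14758793 of miR-27b-3p there were 1182 of miR-27b-5p. MiR-23b-5p had 1174 reads, and miR-27a-5p, the most abundant, had 22923, or 0.793% of its pair. Only the 5p strands tell the miR-24 hairpins apart, and they are shown for that reason, with the same seed and different later bases:
miR-24-1-5p: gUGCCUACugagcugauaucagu
miR-24-2-5p: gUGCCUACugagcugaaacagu

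Of their reads, 3801 were miR-24-2-5p, from the cluster on chromosome 8, and 9 were miR-24-1-5p, so that 99.8% came from the chromosome 8 hairpin. This is a count of the 5p strands and does not measure how miR-24-3p divides. Of the 5 other mature miRNA of these loci that were tested (miR-27a-5p, miR-27b-5p, miR-24-2-5p, miR-3074-5p and miR-3074-1-3p), 0 of 14 time points were called for each by edgeR, with a smallest adjusted p of 0.0517, for miR-27b-5p at M4 in C57Bl/6. Of miR-128-3p, whose seed is that of miR-27 shifted by a base, 0 of 14 were called as well.

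Finally, among irradiated mice of sets G2 (C3H) and G1 (C57Bl/6), the sets sampled from M2 onward, month 1 levels were compared between mice that were sampled at the last time point of their strain and those that were not, for a reason the labels do not give. Of the 10 comparisons, 0 passed a two-sided permutation test, with a smallest adjusted p of 0.36. MiR-23b-3p in C3H ranged from 7.28 to 9.19 log2 CPM (median 8.58) in the 17 mice sampled at M4 and from 6.66 to 8.59 (median 8.02) in the 13 that were not, a difference of 0.38 (permutation p = 0.0743). MiR-24-3p in C3H differed by -0.21 (permutation p = 0.0958). In C57Bl/6, with 8 mice sampled at M6 and 28 not, the differences lay between -0.25 and 0.02. The irradiated C57Bl/6 mice that lack a sample before irradiation may be among these.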

How the data were processed

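Small RNA of mouse plasma was sequenced in 899 samples. The authors aligned the trimmed reads to miRNA of the mouse (mm10 in the submitters' processing notes) with the BaseSpace Small RNA application and deposited raw counts of reads per mature miRNA. Hemolysed plasma and shallow runs had been left out by the authors, so red cell miRNA were measured in the remaining samples only. The miRBase release and the use of molecular identifiers are not given in the sources used here, so the reads need not be independent molecules. Tissue samples were not analysed here.

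Groups (strain, treatment, time) were read from the labels, with 0 columns left unmapped and 0 identical sample pairs. Counts were scaled by TMM (factors 0.372 to 1.59) and tested in R 4.3.3 with edgeR 4.0.16. The filterByExpr function kept 483 of 1915 miRNA with 99.99% of reads, and a robust quasi-likelihood fit to all samples gave each of the 32 groups its own mean (867 residual degrees of freedom). Benjamini-Hochberg adjustment was applied within a contrast, at a threshold of 0.05. For tests of sex the groups were also divided by sex, and differences over several time points were tested by F tests. Log2 CPM used a prior count of 2. Ratios within a sample used counts plus 0.5 and two-sided permutation tests (100000 resamples, or exact where a group was under 10 mice, in Python 3.11.15 with scipy 1.17.1). Abundant miRNA were the 164 with a mean of at least 5 log2 CPM. The ratios were adjusted over 28 comparisons, those of miR-451a over 14 and the month 1 comparisons over 10. The scripts were tested on simulated data. In a simulated D5 comparison of C57Bl/6, a log2 change of 0.5 was called for 13% of the changed miRNA and 30.8% of the abundant ones. A change of 1 was called for 45% and 100%. Differences of the size seen here can thus go uncalled.

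The labels give each mouse a number that recurs over time. With group means removed, the mean correlation was 0.0813 within mice (1962 sample pairs) and -0.00082 between mice (401689 sample pairs), so the mouse was used as a replicate block in alternatives. As the labels name separate mice, the samples of a group came from different animals. The spread within a group thus holds differences between animals and between samples of an animal, and cannot be read as the former alone. Further alternatives were DESeq2 1.42.0, limma-voom and quantile-normalized log2 RPM with limma 3.58.1, other scalings, no filter, and subsets of samples. The members, the lists of other miRNA and the alternative without the C57Bl/6 females of set G3 at D5 were chosen with earlier results of these data known, and the use of that alternative in the tests of sex, of sham mice over time and of strains before irradiation was added after seeing the data. The text names the 5 members, the other mature miRNA of their hairpins, miR-128-3p, the miRNA that share the miR-24-3p seed, miR-451a and, for each member, the 3 abundant miRNA outside the clusters most correlated with it.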

Additional observations from a re-analysis of the deposited data

Results flagged for a closer look

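In 4 results a difference between groups was itself past the threshold, and no explanation of any was tested. The irradiation effect on miR-24-3p differed between the strains (F test in edgeR, adjusted p = 0.000339), with an effect at D5 in C57Bl/6 minus that in C3H of -0.59. It also differed between males and females of C57Bl/6 (F test in edgeR, adjusted p = 0.00158), and without the G3 females at D5, an alternative chosen after seeing the data, the adjusted p was 0.0138. The strain difference passed the threshold in 8 of 11 alternatives and not without the C57Bl/6 females of set G3 at D5, with adjusted p between 1.41e-05 and 0.0838 over the 11. The irradiation effect on miR-27a-3p differed between males and females of C57Bl/6 (F test in edgeR, adjusted p = 0.0156), and 3 of 9 alternatives kept this call. Among the 8 irradiated C57Bl/6 mice at M6, the group small enough to be tested for an outlying sample, no member had one.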

How the results depend on the processing

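Of 67 called values of single members or ratios, recomputed 677 times under the alternatives, 567 were still past the threshold in the same direction, 101 no longer were and 9 reversed. The 4 irradiation calls in C3H became 1 with total reads, with the mouse as a fixed replicate block, in sets G1 and G2 alone and in males alone, 2 with quantile normalization and 0 in females alone, and they became 6 with set and sex as covariates. The 5 in C57Bl/6 became 3 with total reads, without samples under 500000 counts, with limma-voom, with the mouse as a random replicate block and without the G3 females at D5, 2 in males alone and 1 with a and b forms summed, and they became 6 in females alone. The 4 strain calls before irradiation became 2 with total reads. The 1 strain difference in effect became 0 with total reads, with quantile normalization and without the G3 females at D5. The 2 sex differences in effect became 1 with no filter, without samples under 500000 counts, with summed forms, with limma-voom, with the random replicate block and, chosen after seeing the data, without the G3 females at D5. The 0 sex calls before irradiation became 1 with total reads, limma-voom or the random replicate block, and 2 with quantile normalization. The 7 paralog ratio calls became 11 when permuted within set and sex.

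MiR-24-3p at D5 in C57Bl/6 reversed to 0.11 without the G3 females and to 0.34 in set G1 alone. With the a and b forms summed, where the sum of miR-23 is mostly miR-23a-3p, miR-23b-3p reversed to 0.066 at D5 and 0.13 at M4 in C57Bl/6, to 0.14 between strains before irradiation, and to -0.26, -0.00509 and -0.034 in sham C57Bl/6 mice at D5, M4 and M6. Likewise miR-27a-3p reversed to 0.041 in sham C3H mice at M1. The cause of the other changes was not tested. The mouse as a block changed no irradiation call beyond those given in the text. Depth limits miR-23b-3p most, with 22 reads in its lowest sample.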
